A study of Mus musculus with 2 samples.

Results

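The glucocorticoid-induced genes described here are Fam107a, Fkbp5, Tsc22d3, Sgk1, Zbtb16, Lcn2, Errfi1 and Hsd11b1, 8 of the 18193 genes that had a probe set on the mouse array. They were chosen by name from genes known to respond to glucocorticoids, with earlier results of these arrays known, and every probe set annotated to 1 of them alone was used, 18 in all. Because earlier results informed the choice, their values are a description and were not tested. RNA came from 3T3-L1 cells, an established mouse preadipocyte line that becomes fat cells under an inducing mix. One culture had received an siRNA against Phf21a, the gene of BHC80, which reads histone tails for the LSD1 corepressor complex, and the other had received the control siRNA siGL3. Both were grown in DMEM with 25 mM glucose and 10% FBS, given insulin, dexamethasone and 3-isobutyl-1-methylxanthine 24 h after transfection, and harvested 24 h after that. Dexamethasone, a synthetic glucocorticoid, was thus present in both cultures, and no culture without it was analysed here. With 1 array per group there is no error between cultures for any value, the number of arrays limits the precision, and no p-value was computed.

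Glucocorticoids enter the cell and bind the glucocorticoid receptor, the product of Nr3c1, which HSP90 and its cochaperones hold ready for hormone in the cytoplasm. The bound receptor moves to the nucleus, where it acts as a pair of molecules on a response element made of inverted half-sites and raises or lowers the transcription of nearby genes. In preadipocyte cultures dexamethasone is a standard part of the inducing mix and raises early adipogenic factors such as C/EBP delta. Some induced genes feed back on the hormone or on other signals. Fkbp5 encodes a cochaperone that lowers hormone binding by the receptor, Tsc22d3 encodes the anti-inflammatory leucine zipper protein GILZ, and Hsd11b1 encodes the enzyme that regenerates active glucocorticoid inside cells.

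The 4 stretches printed here show the letters next to which the values of Fam107a, Sgk1, Errfi1 and Lcn2 can be read. Each is the 250 bases before a transcription start of RefSeq on build GRCm38.p6, written 5′ to 3′ on the gene's strand and numbered from -250 to -1 at the base before the start. They lie at chr14:8309780-8310029 on the minus strand for Fam107a, chr10:21993640-21993889 on the plus strand for Sgk1, chr4:150854820-150855069 on the plus strand for Errfi1 and chr2:32387740-32387989 on the minus strand for Lcn2. Capitals mark, in Fam107a, a receptor half-site and the best match to the full response element, in Sgk1 the full response element, in Errfi1 the cAMP response element, and in Lcn2 a C/EBP motif followed by the best match to the full response element.
Fam107a: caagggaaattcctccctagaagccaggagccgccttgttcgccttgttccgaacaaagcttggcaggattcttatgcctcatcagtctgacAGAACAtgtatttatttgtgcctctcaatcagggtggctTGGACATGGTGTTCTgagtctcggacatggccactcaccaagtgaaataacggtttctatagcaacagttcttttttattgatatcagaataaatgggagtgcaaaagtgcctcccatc
Sgk1: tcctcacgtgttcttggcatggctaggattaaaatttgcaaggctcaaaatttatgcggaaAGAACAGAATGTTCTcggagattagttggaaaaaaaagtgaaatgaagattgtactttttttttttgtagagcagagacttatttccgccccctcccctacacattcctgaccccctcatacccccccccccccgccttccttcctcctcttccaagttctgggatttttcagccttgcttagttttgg
Errfi1: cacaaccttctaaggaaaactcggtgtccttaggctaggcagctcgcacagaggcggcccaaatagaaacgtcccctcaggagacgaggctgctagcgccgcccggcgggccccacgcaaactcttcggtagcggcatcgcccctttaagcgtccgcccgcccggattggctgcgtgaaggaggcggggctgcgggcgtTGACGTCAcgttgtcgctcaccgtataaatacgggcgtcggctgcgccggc
Lcn2: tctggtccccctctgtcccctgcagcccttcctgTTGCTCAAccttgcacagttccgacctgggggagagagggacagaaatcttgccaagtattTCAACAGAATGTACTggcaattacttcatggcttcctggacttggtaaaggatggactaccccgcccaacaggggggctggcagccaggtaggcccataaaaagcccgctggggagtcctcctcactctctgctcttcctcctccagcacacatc

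Of the 8 genes, 7 had windows of this kind, 17 in all, and Zbtb16 had none in the table. The letter patterns given here were searched on both strands. The full response element, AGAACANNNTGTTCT, was present in 1 of the 17 windows, that of Sgk1 at -189, and in 3 of all 32851 windows (0.00913%). Its half-site AGAACA was in 6 of the 17 windows and in 16.1% of all windows, and the half-sites of the full element count among these. The 6 belong to Fam107a, Sgk1 and Tsc22d3 alone, and those of Fam107a overlap almost whole, so they are not separate cases. Of 48 windows of the other glucocorticoid-induced genes listed below, 0 held the full element and 8 a half-site. In Fam107a the best match to the element, at -119, held 10 of its 12 fixed letters, a match reached by 1.56% of all windows, and in Lcn2 the best match at -155 held 9, reached by 12.3%. The cAMP response element TGACGTCA lay at -51 in Errfi1 and in 1.55% of all windows. The C/EBP pattern TTGCNNAA lay at -216 in Lcn2, at -210 in another Sgk1 window and in 9.56% of all windows. The NF-kB pattern GGGANNTTCC was found at -247 of the Fam107a stretch (-249 of another window of that gene that overlaps it almost whole) and in 1.21% of all windows, and the AP-1 pattern TGANTCA in 0 of the 17 and 6.75% of all. These are matches of letters in short windows and do not show binding.

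Detection asked for a signal of at least 51.3, the median over both arrays, on 1 array or both, and signals under 12.9, their 25th percentile, were raised to that floor before log2 was taken. Ratios are log2 of the Phf21a siRNA signal over the control siRNA signal. Beside them stands a local spread, the distance, divided by 2, between the 16th and 84th percentiles of the log2 ratios of the 1000 detected genes nearest in signal, which describes the scatter of 1 array against 1 array and not that of cultures. The brightest detected probe set stands for each gene, one with a name ending in _x_at only where no other was detected. Of all genes 11301 were detected, with a median log2 ratio of 0.03, and both arrays had a trimmed mean of 500. The targeted gene Phf21a had signals of 306 on the Phf21a siRNA array and 768 on the control siRNA array (log2 ratio -1.33, local spread 0.52 among probe sets). Of 13 fibroblast and preadipocyte markers 11 were detected, among them Vim at 29961 and 27291 on those arrays, and Cd34 and Lum were not. Of 13 adipocyte markers 8 were detected, among them Fabp4 (5849 and 3502), Lpl (3253 and 3614) and Pparg (814 and 512), while Adipoq, Lep, Cidec, Cebpa and Car3 lay under the detection limit on both arrays.

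Fam107a and Lcn2 were higher on the Phf21a siRNA array, Errfi1 and Hsd11b1 were lower, and Fkbp5, Tsc22d3, Sgk1 and Zbtb16 differed by less than their local spreads. All 8 genes were detected, and Hsd11b1 only through its signal on the control siRNA array, so that it had to be lower on the other. One Fam107a probe set was likewise detected through the Phf21a siRNA array alone and had to be higher there. At 1.5-fold, 2 of the 8 genes were higher, against 15.2% of all detected genes, and 2 were lower, against 13.9% of all. At 2-fold, 2 were higher, against 5.72% of all, and 1 was lower, against 5.47%. Since the choice of the genes used this contrast, nothing is read from these counts. Among their 16 detected probe sets 4 passed 1.5-fold upward (14.2% of all detected probe sets did) and 3 downward (16.3%), and 9 lay between. At 2-fold 4 passed upward (5.31% of all) and 1 downward (6.73%). In RNA from whole cultures, a change in the share of responding cells and a change in RNA per cell cannot be told apart.

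**Figure D1:**
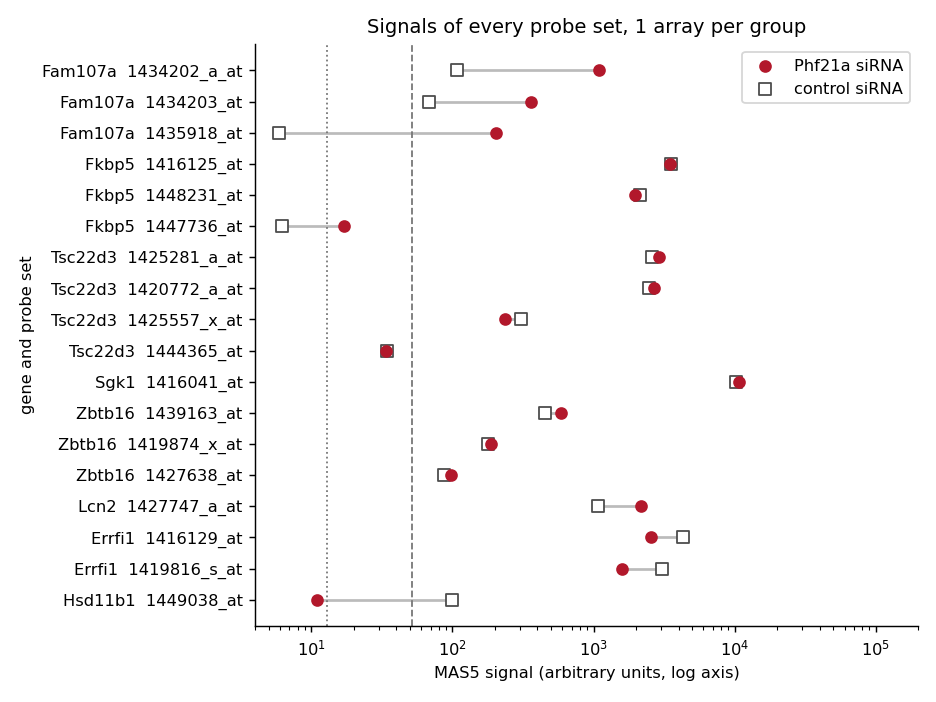
Signal of each of the 18 probe sets (rows) on a log axis, with filled circles for the Phf21a siRNA array and open squares for the control siRNA array; the dotted line is the floor of 12.9 and the dashed line the detection limit of 51.3. The circles lie right of the squares for all 3 Fam107a probe sets and for Lcn2, left of them for both Errfi1 probe sets and Hsd11b1, and almost on them for the bright probe sets of Fkbp5, Tsc22d3 and Sgk1.

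Fam107a, an actin-binding protein that stress hormones induce in brain, had the highest ratio of the 8. Its brightest probe set read 1085 on the Phf21a siRNA array and 107 on the control siRNA array, a 10.1-fold difference (log2 ratio 3.34, local spread 0.55). A second probe set read 360 on the Phf21a siRNA array and 67.8 on the control siRNA array (2.41). The third read 203 on the Phf21a siRNA array and 5.89 on the control siRNA array, where it was under the floor, and it was at least 3.96-fold higher with the lower signal raised to the detection limit. Both brighter probe sets were over the detection limit on both arrays and higher on the Phf21a siRNA array, while the dimmest had to be higher there to be detected. Among the 1000 detected genes nearest in signal only 1, Fam107a itself, had a ratio as high, and over all 11301 detected genes 3 did, itself included. The genes closest to it in the plane of both log2 signals, a likeness over 2 arrays only, were Serpinb8, Havcr2 and Hsd3b7, at distances of 0.33, 0.51 and 0.74. They read 863, 764 and 912 on the Phf21a siRNA array and 107, 107 and 174 on the control siRNA array.

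Fam107a is best known from brain, so astrocyte and neuron markers are given beside it. Of 12 such markers 5 were detected, and the summed signal of all 12 was 1265 on the Phf21a siRNA array and 5848 on the control siRNA array, most of it from Gja1 (726 and 5107), a connexin that fibroblasts also make. Gfap read 10.7 and 44.8 on the same arrays and Slc1a2 24.95 and 26.04, all under the detection limit, and Aqp4 read 52.8 and 23.8. Of the 5, 3 were at least 1.5-fold lower (13.9% of all detected genes were), with Tubb3 at -1.02, Map2 at -0.85 (another probe set 0.475) and Gja1 at -2.82. The 1 that was higher (15.2% of all) was Aqp4, detected on the Phf21a siRNA array alone, and raising signals to the detection limit left 0 higher. The part of such cells in the Fam107a value was not tested. Fam107b, a relative of Fam107a, read 2542 on the Phf21a siRNA array and 1707 on the control siRNA array, a log2 ratio of 0.57, which is under 1.5-fold, with its lowest probe set at 0.03.

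Lcn2 encodes lipocalin-2, a secreted protein that binds iron-carrying siderophores and is made in fat cells and in neutrophils. Its only probe set read 2163 on the Phf21a siRNA array and 1068 on the control siRNA array, a 2.02-fold difference (log2 ratio 1.02, local spread 0.47). Among the 1000 genes nearest in signal, 21 had a ratio at least as high. Scaled to the poly-A controls its log2 ratio was 0.29, under 1.5-fold, while all detected genes then had a median of -0.73. Relative to the median of all detected genes, Lcn2 stayed between 0.97 and 1.03 over the alternatives. The neutrophil markers Ltf (4.44 and 2.72), S100a9 (1.95 and 1.26), Elane (8.05 and 7.14), Ngp (22.2 and 25.9) and Camp (22.3 and 12.4) lay under the detection limit on the Phf21a siRNA and control siRNA arrays, and S100a8 was detected at 89.6 and 168. Of 19 leukocyte and neutrophil markers 5 were detected, with summed signals over all 19 of 995 and 756, and 3 of the 5 were at least 1.5-fold higher and 1 lower, against 15.2% and 13.9% of all detected genes. Raising signals to the detection limit left 2 higher (13.4% of all), since Fcer1g was detected on the Phf21a siRNA array alone, and a Csf1r probe set stood at 0.18. Csf1r read 452 and 200, Cd68 119 and 64.0, and Fcer1g 54.4 and 25.7, on those arrays, while Ptprc at 12.2 and 6.87 and Tyrobp at 6.32 and 4.66 were undetected. The part of such cells in the Lcn2 value was not tested.

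Acute phase genes, which inflammation induces together with Lcn2, differed both ways. Of 12 detected, 4 were at least 1.5-fold higher (15.2% of all detected genes were) and 1 was lower (13.9% of all), with a median log2 ratio of 0.09 against 0.03 over all detected genes. Cp, the copper protein ceruloplasmin, read 2577 on the Phf21a siRNA array and 1007 on the control siRNA array (log2 ratio 1.36, local spread 0.47), and its 8 probe sets ranged from 0.55 to 2.58. Orm1, an acute phase glycoprotein, read 672 and 295 (1.19) on those arrays and its near-identical copy Orm3 130 and 67.3 (0.95). Cross-hybridisation between these copies was not checked, so their separate values are uncertain. Orm2 was the other one past 1.5-fold. Socs3, an inhibitor of cytokine signalling, was lower at 236 on the Phf21a siRNA array and 492 on the control siRNA array (-1.06, with its 3 probe sets from -1.06 to -0.54). Of the receptors for lipocalin-2, Slc22a17 read 102 and 178 (-0.80, local spread 0.68) and Lrp2 was undetected at 47.3 and 37.6.

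Errfi1 encodes MIG6, which binds the EGF receptor and blocks its kinase. Its brighter probe set read 2559 on the Phf21a siRNA array and 4318 on the control siRNA array, a 1.69-fold lower signal (log2 ratio -0.75, local spread 0.40). The other, with a suffix that marks probes shared between transcripts, read 1582 on the Phf21a siRNA array and 3073 on the control siRNA array (-0.96). Both probe sets were thus lower, and 37 of the 1000 genes nearest in signal had a ratio at least as low. Egfr itself read 193 on the Phf21a siRNA array and 179 on the control siRNA array, and Erbb2 369 and 337, both under 1.5-fold and chosen for naming after their values were seen. Among the listed ligands of the EGF receptor Ereg, epiregulin, was 2.37-fold lower, with signals of 1523 and 3613 (-1.25, local spread 0.43). The other listed ligands that were detected were under 1.5-fold and are also named after their values were seen. Hbegf was at 0.28 (second probe set 0.52), Btc at -0.03 and Tgfa at -0.15 (second probe set -2.18).

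Hsd11b1 was the only one of the 8 whose signal was low on both arrays. It read 10.97 on the Phf21a siRNA array, under the floor, and 99.9 on the control siRNA array. With the lower signal raised to the detection limit it was at least 1.95-fold lower (-0.96), and the log2 ratio at the floor was -2.96 with a local spread of 1.26. The gene has 1 probe set, so no second one bears on this difference. Its neighbours in the plane of both log2 signals were as dim, namely Kcnc1 (2.68 and 106), Sarm1 (11.5 and 93.4) and Pdzk1ip1 (11.8 and 89.4). H6pd, whose enzyme supplies the cofactor that Hsd11b1 needs in the endoplasmic reticulum, read 699 on the Phf21a siRNA array and 589 on the control siRNA array (0.25, local spread 0.53). Hsd11b2, which encodes the enzyme of the opposite direction, was undetected at 9.20 and 5.32.

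Fkbp5, among the most responsive glucocorticoid targets in many tissues, was nearly equal on both arrays. Its bright probe sets read 3458 on the Phf21a siRNA array and 3554 on the control siRNA array (log2 ratio -0.04, local spread 0.39), and 1958 on the Phf21a siRNA array and 2121 on the control siRNA array (-0.12). The remaining one was undetected at 17.1 and 6.22. Sgk1, a kinase named for its induction by serum and glucocorticoid, read 10680 on the Phf21a siRNA array and 10215 on the control siRNA array on its only probe set (0.06, local spread 0.30). This is the gene whose printed stretch holds the full response element.

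Tsc22d3 read 2903 on the Phf21a siRNA array and 2594 on the control siRNA array on its brightest probe set (log2 ratio 0.16, local spread 0.43). A second read 2680 and 2448 on those arrays (0.13), a dimmer one whose name marks probes that may bind other transcripts read 234 and 308 (-0.40), and the last was undetected at 33.8 and 34.6. Zbtb16, which encodes the zinc finger repressor PLZF, read 590 on the Phf21a siRNA array and 454 on the control siRNA array (0.38, local spread 0.52), and its other probe sets read 186 and 179 (0.06) and 97.4 and 86.9 (0.16). The 9 detected probe sets of Fkbp5, Tsc22d3, Sgk1 and Zbtb16 thus spanned log2 ratios from -0.40 to 0.38, all under 1.5-fold. With 1 array per group this does not show that their levels were equal in the cultures. Scaled to the poly-A controls, Fkbp5 stood at -0.76 and Sgk1 at -0.66, past 1.5-fold lower. That scaling put the median of all detected genes at -0.73 and 61.3% of them past 1.5-fold lower, so both stood near that median.

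**Figure D2:**
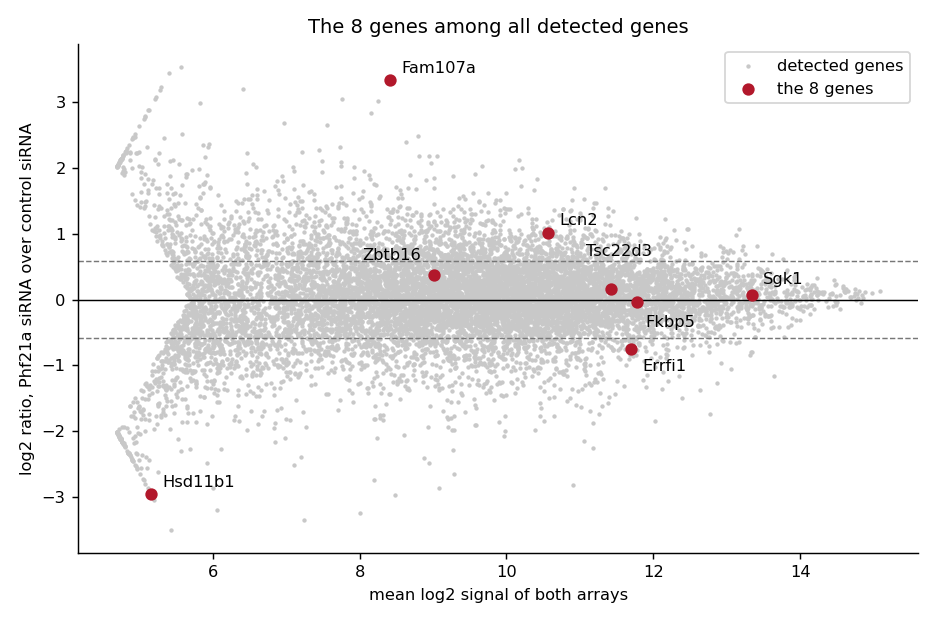
Log2 ratio (Phf21a siRNA over control siRNA) against the mean log2 signal of both arrays for the 11301 detected genes (grey) and the 8 genes (red); dashed lines mark 1.5-fold. Fam107a at 3.34 stands at the upper edge and Hsd11b1 at -2.96 among dim genes at the floor, while Fkbp5, Tsc22d3, Sgk1 and Zbtb16 lie within the dashed lines.

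Another list held the receptor, its chaperones and cochaperones, H6pd and the drug pumps given below. Of its 15 detected genes, 0 passed 1.5-fold upward (15.2% of all did) and 1 downward (13.9% of all). Its median log2 ratio was 0.02 against 0.03 over all detected genes. Nr3c1, the receptor, read 1271 on the Phf21a siRNA array and 1065 on the control siRNA array (log2 ratio 0.26, local spread 0.47), and its 5 detected probe sets ranged from -0.17 to 0.41. Nr3c2, the mineralocorticoid receptor that also binds glucocorticoid, was undetected at 37.4 and 40.7. The one past 1.5-fold was Stip1, the adaptor that hands clients from HSP70 to HSP90, at 3604 on the Phf21a siRNA array and 6149 on the control siRNA array (-0.77, local spread 0.36).

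The other chaperone genes had log2 ratios of -0.10 for Hsp90aa1, -0.04 for Hspa8, 0.02 for Hspa4, 0.30 for Dnajb1, -0.12 for Dnaja1 (another probe set -1.32) and 0.16 for the HSP90 adaptor Cdc37 (another -0.61). Fkbp4, the cochaperone that competes with FKBP5 for the receptor complex, had a log2 ratio of -0.41, with 3 probe sets between -1.61 and -0.09. The phosphatase Ppp5c, another cochaperone, was at -0.52 with 3 probe sets between -0.53 and -0.42, the ubiquitin ligase Stub1 at -0.27 and the HSP70 cofactor Bag1 at 0.54. The drug pumps Abcb1a (0.56, at 77.8 and 52.6) and Abcb1b (0.05), which can export dexamethasone, were also under 1.5-fold. Receptor coregulators had a median of 0.22 over 15 detected genes, of which 2 (13.3%) passed 1.5-fold upward and 1 (6.67%) downward, against 15.2% and 13.9% of all. Ncoa1, a coactivator of steroid receptors, read 152 on the Phf21a siRNA array and 354 on the control siRNA array (-1.22, second probe set -1.30), while the acetyltransferase Ep300 read 954 and 574 (0.73) and the coactivator Tgfb1i1 1703 and 1052 (0.69).

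Other genes that glucocorticoids induce in 1 tissue or another were more often higher than lower with the deposited scaling. Scaled to the poly-A controls, which moved all genes down together (2.17% of all detected genes higher and 61.3% lower), 3 of them were higher and 15 lower, and their median stood 0.27 above that of all detected genes. Of the 40 detected, 13 (32.5%) were at least 1.5-fold higher and 5 (12.5%) lower, against 15.2% and 13.9% of all detected genes, and 27 were above 0. Their median log2 ratio was 0.27, which is 0.24 above that of all detected genes. Several of them are also targets of p53, FOXO factors or cAMP, and the list was written with an account of these arrays known. Of the 13, Sult1a1, Crispld2, Fbxo32 and Pnmt had control siRNA signals under the detection limit, so that the probe sets used had to be higher. Raising signals to that limit gave 13 past 1.5-fold upward and 5 downward, against 13.4% and 11.3% of all detected genes. Sult1a1, Crispld2, Fbxo32 and Pnmt stayed in the 13, so this check does not remove genes that entered through 1 array. Of the 5, the probe set of Tgm2 was detected on the control siRNA array alone and had to be lower on the other. Tgm2 likewise stayed in the 5.

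Foxo3, a forkhead factor of fasting responses, read 1358 on the Phf21a siRNA array and 603 on the control siRNA array (log2 ratio 1.17, local spread 0.49), with its 3 probe sets from 0.62 to 1.17. Dusp4, a phosphatase that switches off MAP kinases, read 1032 on the Phf21a siRNA array and 474 on the control siRNA array (1.12, local spread 0.53). Pdk4, the kinase that inhibits pyruvate dehydrogenase, was at 1.30, Mertk, a receptor for the uptake of dying cells, at 1.42 (304 and 113), and Il6ra, the receptor for interleukin-6, at 0.96 (133 and 68.3). Fbxo32, the muscle ubiquitin ligase atrogin-1, read 118 and 48.7 and its 3 probe sets ranged from 0.54 to 1.91. The sulfotransferase Sult1a1 (121 and 6.48) and the secreted protein Crispld2 (94.3 and 8.39) were detected on the Phf21a siRNA array alone and are given without a fold.

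Of the 5 that were lower, Angptl4 (1.504-fold) and Tle3 (1.508-fold) only just passed 1.5-fold. Tle3 and Tgm2 had other probe sets that were higher (up to 1.19 and 1.999). The lower ones included Rgs2, a brake on G protein signalling, at 765 on the Phf21a siRNA array and 1559 on the control siRNA array (log2 ratio -1.03, local spread 0.46, with 3 probe sets from -1.05 to -0.53). Lpin1, a phosphatidate phosphatase, read 136 and 294 (-1.11, second probe set -0.31). Some further genes of the list, chosen for naming after their values were seen, were all under 1.5-fold. Per1, a clock gene, was at 0.24, Klf9, a zinc finger factor, at 0.14, Cebpd, which encodes C/EBP delta, at 0.10 (second probe set -2.01), Nfkbia, the inhibitor of NF-kB, at 0.23, and Dusp1, a MAP kinase phosphatase, at 0.41 (local spread 0.37). The metallothioneins Mt1 and Mt2 were at 0.39 (local spread 0.29) and -0.09, and Zfp36, which destabilises cytokine messengers, at -0.02. Klf15 was undetected on both arrays.

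**Figure D3:**
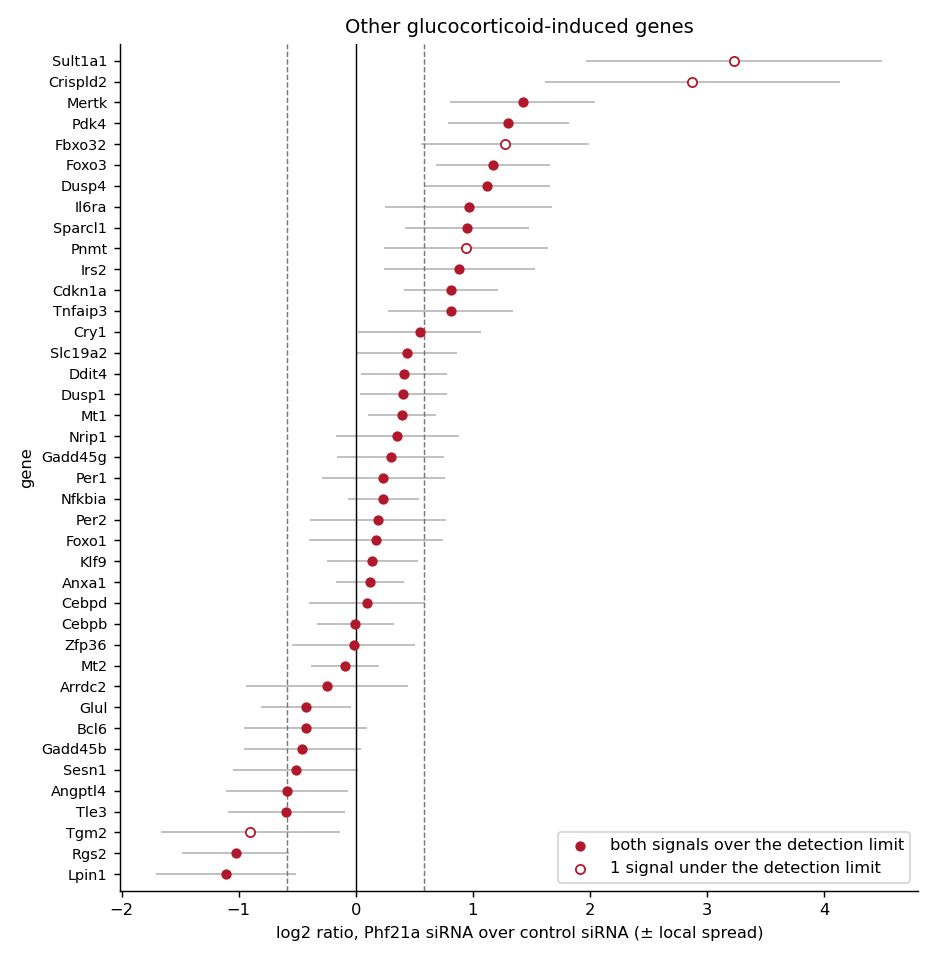
Log2 ratio (Phf21a siRNA over control siRNA) of the 40 detected genes of the list of other glucocorticoid-induced genes, with bars of 1 local spread to either side and open circles where 1 signal was under the detection limit of 51.3; dashed lines mark 1.5-fold. With the deposited scaling the 13 genes right of the upper dashed line (3 when scaled to the poly-A controls, which lowers all genes) run from Tnfaip3 to Sult1a1, and the 5 to the left of the lower one are Angptl4, Tle3, Tgm2, Rgs2 and Lpin1.

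Of 25 inflammatory genes that glucocorticoids repress, 14 were detected. Of these 8 (57.1%) were at least 1.5-fold lower, against 13.9% of all detected genes, and 1 was higher, against 15.2%. Their median log2 ratio was -1.08, and without a detection limit the median of all 25 relative to that of all genes was -0.20. Raising signals to the detection limit left 7 lower and 0 higher, against 11.3% and 13.4% of all detected genes, with a median of -0.64. Il11, a cytokine of stromal cells, read 146 on the Phf21a siRNA array and 626 on the control siRNA array (-2.10, local spread 0.57), and the chemokine Ccl7 read 759 and 2598 (-1.78, local spread 0.47). Mmp9 (2.90 and 55.6) and Ccl5 (68.3 and 19.5) were detected on 1 array only. The cytokines Tnf (31.5 and 32.4) and Il1b (38.0 and 39.1) were undetected on both arrays. The direction of this list was already visible when it was written and is no separate evidence.

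The inducing mix also raises cAMP, and genes induced by cAMP were therefore listed too. Over 21 detected cAMP-induced genes the median log2 ratio was -0.01, and 1 gene passed 1.5-fold upward (15.2% of all detected genes did) and 4 downward (13.9% of all), shares of 4.76% and 19.0% of the list. Ppargc1a, a coactivator of oxidative genes, read 324 on the Phf21a siRNA array and 68.6 on the control siRNA array (2.24), whereas the hormone Stc1 read 54.7 and 244 (-2.16), the phosphodiesterase Pde3b 65.8 and 210 (-1.67) and the early factor Egr1 1196 and 2545 (-1.09). Rgs2, given above, also belongs here. The partners of the 8 proteins, meaning their ligands, substrates, receptors and regulators, had a median of 0.17 over 26 detected genes, with Foxo3, which SGK1 phosphorylates, past 1.5-fold upward (3.85% of them, against 15.2% of all) and Mmp9, Ereg and Slc22a17 downward (11.5%, against 13.9%).

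Relatives of the 8 genes were compared as a list because probes or functions may be shared. Their median log2 ratio was 0.23 over 33 detected genes, of which 7 were higher by 1.5-fold or more and 2 lower, against 15.2% and 13.9% of all detected genes. Raising signals to the detection limit left 6 and 1, against 13.4% and 11.3% of all. Sgk3, a kinase of the Sgk1 family, read 185 on the Phf21a siRNA array and 64.7 on the control siRNA array (1.51, local spread 0.71, 3 probe sets from 0.99 to 1.51). Tsc22d4, of the Tsc22d3 family, read 1234 and 715 (0.79, second probe set 0.21). The short-chain dehydrogenases Hsd17b11 (4006 and 2019, 0.99) and Dhrs3 (246 and 87.0, 1.497), which belong with Hsd11b1, were higher on the Phf21a siRNA array. Dhrs1 (0.45, local spread 0.53) and Dhrs7 (0.05), of the same family and named after their values were seen, were under 1.5-fold. The lipocalins Ptgds, Rbp4 and Apod were undetected on both arrays. Among zinc finger repressors of the Zbtb16 type, Zbtb4 was at 0.89 (3 probe sets from -0.57), Zbtb7b at 0.81 (second probe set 0.08) and the dim Zbtb7c had signals of 52.3 and 12.4. The dim Zbtb32 (25.4 and 54.1) and Fkbp1b (49.1 and 134) were lower, and a second probe set of Zbtb32 stood at 2.04.

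Markers of the cells of the culture and of other cell types were also listed. Of 11 detected fibroblast and preadipocyte markers 1 was at least 1.5-fold higher (Pdgfrb, 0.84, second probe set 0.13) and 1 lower (Dlk1, -1.05). Over all detected genes 15.2% were higher and 13.9% lower. The median log2 ratio of these markers was -0.16, with summed signals of 111004 on the Phf21a siRNA array and 114545 on the control siRNA array. Of 8 detected adipocyte markers 4 were at least 1.5-fold higher (15.2% of all detected genes were), among them Fabp4 (5849 and 3502, 0.74), Pnpla2 (568 and 238, 1.25) and the dim Retn (70.9 and 9.82), and 1 was lower, the dim Slc2a4 (8.99 and 70.8; 13.9% of all were lower), with a median of 0.58. Raising signals to the detection limit left 3 higher and 0 lower (13.4% and 11.3% of all) and a median of 0.26. Without suffixed probe sets the median relative to that of all genes was -0.33. Of 10 endothelial markers only Egfl7 was detected (69.3 and 14.6, with probe sets from -0.29), and Pecam1 (5.07 and 10.00) and Cdh5 (26.5 and 27.1) were not. Of 10 skeletal muscle markers 3 were detected, and Myod1 (21.2 and 31.4) was not. Of the 3, Ckm (22.5 and 55.5) and Acta1 (69.4 and 121) were at least 1.5-fold lower (13.9% of all detected genes were). Ckm was detected on the control siRNA array alone and had to be lower on the other. Raising signals to the detection limit left 1 muscle marker lower (11.3% of all). Summed signals were 151 and 131 for the endothelial list and 272 and 392 for the muscle list on the Phf21a siRNA and control siRNA arrays.

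**Figure D4:**
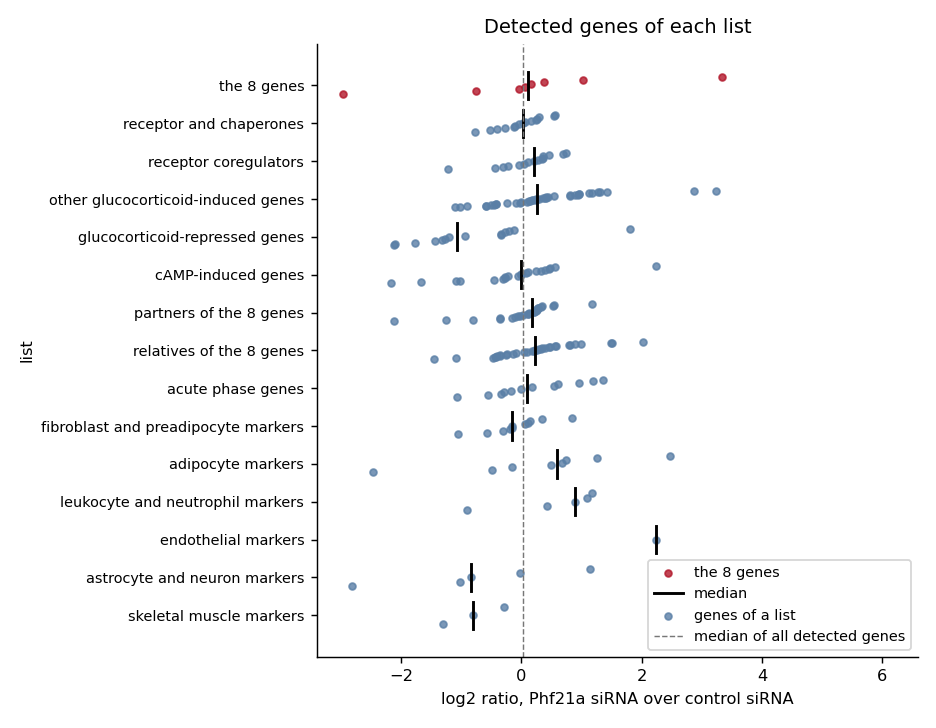
Log2 ratio (Phf21a siRNA over control siRNA) of the detected genes of each list (dots) with the list's median (black bar), the 8 genes on top in red, and the median of all detected genes, 0.03, as a dashed line. The 8 genes spread from -2.96 to 3.34 around a median of 0.11, the other induced genes have a median of 0.27 (-0.46 when scaled to the poly-A controls, where all detected genes have -0.73) and the repressed inflammatory genes one of -1.08.

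The values depend on the scaling of the arrays. The 24 probe sets of poly-A control RNA, which is added before labelling, had a median log2 ratio of 0.73, and the 18 of the hybridisation controls one of 0.23. A different amount of poly-A control RNA added and a different messenger RNA content of the samples cannot be told apart here, so no value scaled to these controls can be read as RNA per cell. Scaled to them, the median of all detected genes was -0.73 and -0.21, so that all genes move together and the lists with them. The poly-A controls put 2.17% of all detected genes past 1.5-fold upward and 61.3% downward, and the hybridisation controls 8.47% and 24.3%. Relative to the median of all detected genes, Fam107a stayed between 2.40 and 3.34 over the alternatives, Lcn2 between 0.97 and 1.03, Errfi1 between -0.85 and -0.75, Sgk1 between 0.01 and 0.07 and Hsd11b1 between -3.10 and -0.99. On the same relative scale the other induced genes had a median between 0.19 and 0.28 and the repressed inflammatory genes one between -1.26 and -0.20.

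**Figure D5:**
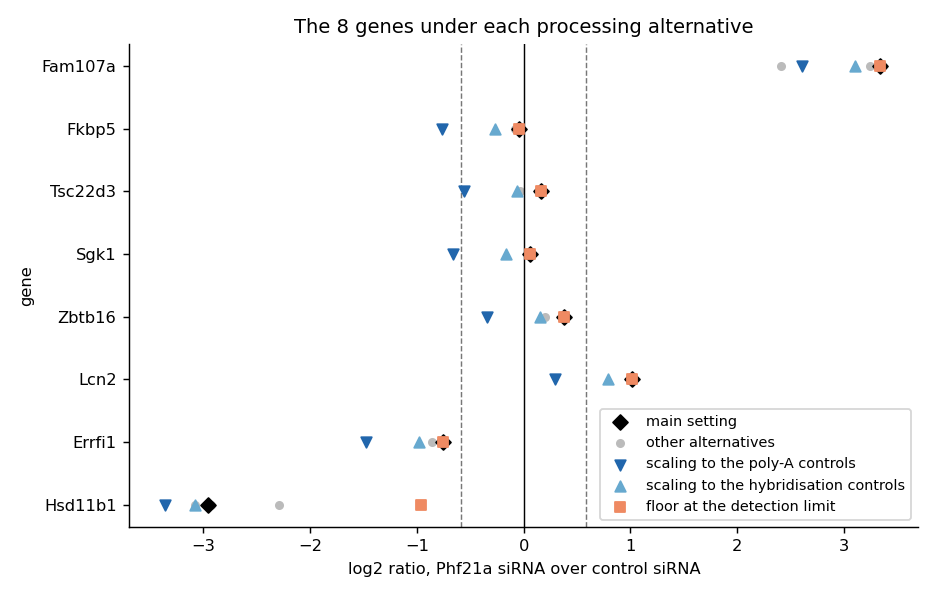
Log2 ratio (Phf21a siRNA over control siRNA, not relative to other genes) of the 8 genes under the main setting (black diamonds) and the 11 alternatives, with dashed lines at 1.5-fold. Scaling to the poly-A controls (dark triangles) moves each gene to the left, Lcn2 to 0.29 and Fkbp5 to -0.76. The median of all detected genes then stands at -0.73. A floor at the detection limit (squares) moves Hsd11b1 to -0.96.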

How the data were processed

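Gene expression was measured in 2 samples of differentiating 3T3-L1 cells, 1 given an siRNA against Phf21a and 1 a control siRNA, as grouped by the labels. The deposited values are linear intensity signals, 1 per probe set, which the authors computed with MAS5 (per the submitters' processing notes, no version stated). MAS5 subtracts mismatch signal, which leaves low signals noisy, and scales arrays to a common trimmed mean, so a change in total messenger RNA cannot be seen. Of 45101 probe sets 64 were controls, 34945 had 1 gene symbol in the array's annotation, 932 several and 9160 none.

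Ratios, floors, detection and local spreads were computed as given in the report with matplotlib 3.10.9, statsmodels 0.14.6, scipy 1.17.1, pandas 2.3.3 and numpy 2.4.6 under Python 3.11.15, and the steps were tested on simulated data. With 1 array per group no test was run and features were counted by size. The 8 genes and the 14 lists (318 entries, 18 of them without a usable probe set and 16 genes listed more than once) were chosen with earlier results of these data known. The genes named are all 8, Phf21a, every detected gene of the receptor and chaperone list, the genes furthest from 0 past 1.5-fold in each other list (up to 10 of the other induced genes and of the relatives, up to 4 elsewhere), and the 3 genes nearest in both signals to the highest and to the lowest of the 8. Others are named as undetected, as detected on 1 array only, as checks of a cell type or as chosen after their values were seen. Promoter windows came from RefSeq. Alternatives were 5 scalings (median centring, quantile, loess with a span of 0.3, poly-A and hybridisation controls), a floor at the detection limit, a pseudocount of 1, averaging the probe sets of a gene, dropping suffixed ones, and a stricter and no detection limit.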

Additional observations from a re-analysis of the deposited data

How the results depend on the processing

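Over the 11 alternatives no log2 ratio of the 8 genes that was past 1.5-fold changed sign. Of the 8, 2 were higher and 2 lower at 1.5-fold in the main setting, against 15.2% and 13.9% of all detected genes. Scaling to the poly-A controls gave 1 higher and 4 lower, where 2.17% of all detected genes were higher and 61.3% lower. Leaving out suffixed probe sets gave 1 higher because Lcn2 then has no probe set. A detection limit at the 75th percentile gave 1 lower because Hsd11b1 is then left out. For the other induced genes, with 13 higher, 5 lower and a median of 0.27, the poly-A controls gave 3, 15 and -0.46. The hybridisation controls gave 12 higher, 9 lower and a median of 0.039, against 8.47% higher and 24.3% lower of all detected genes. The stricter limit gave 6 higher and 3 lower of fewer genes, against 13% and 10.2% of all. Median centring gave 4 lower, quantile normalization 3, and leaving out suffixed probe sets 2 of fewer genes, against 13.8%, 13.3% and 15% of all. In the main setting Angptl4 and Tle3 passed 1.5-fold only narrowly (1.504-fold and 1.508-fold lower), and the cause of the differing counts was not tested. Scaling to the poly-A controls lowers all genes to a median of -0.73, and under it the leukocyte list had a median of -0.30, which is 0.43 above all genes, and Tgfb1i1 was at -0.030. Fbxo32 (-0.19) and Zbtb7b (-0.65, and -0.15 with the hybridisation controls) changed sign through the scaling together with a change of the probe set that stands for them, to one at 0.54 and 0.08 with the deposited scaling. Averaging probe sets reversed Zbtb32 (0.47). Of 699 values of 68 named genes from the lists 619 moved by less than the local spread, 75 moved by more and 5 reversed. Fam107a ranged from 2.41 to 3.36 and Hsd11b1 from -3.36 to -0.96. No paired analysis was possible because each group has 1 array. Low signal over background limits Hsd11b1 most, since its lower signal is under the floor.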
